A study of Mus musculus with 48 samples.

Results

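Sesn1, Sesn2, Ddit4, Gdf15, Slc19a2, Dcxr, Ak1 and Rps27l are 8 genes that link the tumour suppressor p53 to stress signalling, nutrient transport and metabolism, and they are followed here in hippocampal microglia after brain irradiation. They were picked by name with earlier results of these data known, so the shares of all genes beside them are no unselected comparison. They are 8 of the 48526 genes in the table. On postnatal day 21 C57BL/6 mice were given 8 Gy of X-rays to the whole brain at once, or were sham treated, and tissue was taken 2 h, 6 h, 1 day or 1 week later from 6 animals in each of the 8 groups, with separate sham animals at every time. Microglia, the resident macrophages of the brain, were sorted from the dissociated hippocampus on the chemokine receptor Cx3cr1, and bulk RNA of each animal was sequenced; no further genotype is given. Levels are reads per kilobase of gene span per 1000000 reads on genes (RPKM). An effect is the irradiated mean less the sham mean of log2(RPKM + 1), a scale that understates the change of low genes, and is given with its SE.

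p53 is a transcription factor that is stabilised when DNA is broken, and its best known targets stop the cell cycle or start cell death. A further set of targets adjusts growth and metabolism. Sestrins and Ddit4 restrain the growth kinase complex mTORC1, Gdf15 is a secreted stress signal, Slc19a2 takes up thiamine, Dcxr and Ak1 are metabolic enzymes, and Rps27l is a ribosomal protein. Several of them also answer to other factors: Sesn2 and Gdf15 are known targets of the stress factor ATF4, and Ddit4 responds to glucocorticoids and low oxygen.

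Libraries held 175382 to 3856777 reads on genes, and 3 of the 48 held under 1000000: sham 1 day library 6, irradiated 2 h library 2 and sham 6 h library 4. All 10 microglia markers examined were detected in every library, whereas 6 of 7 lymphocyte markers were at 0 in at least 39 libraries. Among monocyte and neutrophil markers Ly6g and Mpo had no read in any library. Ly6c2, S100a8, S100a9 and Chil3 were at 0 in at least 43 libraries. Ccr2 and Plac8 averaged 7.16 and 13.4 RPM, and Ccr2 was read in every library. Summed microglia markers were 22300 to 32400 reads per 1000000 (RPM) in irradiated and 32800 to 42700 in sham libraries at 1 day; their part in the results was not tested. Summed astrocyte markers were 657 to 963 RPM in irradiated and 244 to 447 in sham libraries at 2 h. Slc1a3 was the highest of them, with a mean of 363 RPM over all libraries. Slc1a2, Aldoc, Gja1, Aqp4, Gfap and Aldh1l1 averaged 18.6, 3.8, 3.12, 1.58, 0.833 and 0.68 RPM, and Slc1a2 was read in every library. The part of the astrocyte markers was not tested either. At 6 h the microglia markers summed to 31100 to 34300 RPM in irradiated and 39800 to 44600 in sham libraries, perivascular macrophage markers to 36.5 to 77.6 and 107 to 172, and astrocyte markers to 369 to 513 and 294 to 344, in each case without overlap and with a part in the results that was not tested. At 1 day monocyte and neutrophil markers summed to 25.1 to 91.9 RPM in irradiated and 12.9 to 51.3 in sham libraries, and their part was not tested. Some libraries stood apart within their groups. At 2 h the 15 immediate early genes, which respond to stimulation and handling, summed to 12400 to 24600 RPM in libraries 1 to 3 of both groups and to 4990 to 8070 RPM in libraries 4 to 6. At 6 h, sham libraries 5 and 6 held 27900 to 30200 RPM of the mitochondrial RNA mt-Rnr2 and sham libraries 1 to 4 held 55200 to 68100, while irradiated libraries held 21200 to 39800. At 1 week mt-Rnr2 was 22900 to 41100 RPM in irradiated and 11700 to 20700 in sham libraries, and its part in the results was not tested. Calls that were lost or gained with 1 of these sets of libraries are given beside the results. In bulk RNA, fewer cells of a type and less RNA per cell cannot be told apart.

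The members sit on 7 chromosomes, and none shares exon bases with another gene of GENCODE M21 on GRCm38. Windows of 250 bases before each RefSeq start (GRCm38.p6, 14 windows for the 8 genes) were searched on both strands for the p53 decamer, the repeated unit of p53 response elements, and for the hypoxia core ACGTG; the motifs were chosen with the expression results known. The 4 windows below contrast the sestrin that fell with the one that rose (Sesn1 and Sesn2). They also set the member with 2 p53 decamers (Rps27l) beside Ddit4, which passed at no time in the main fit of 8 group means. Capitals mark p53 decamers and hypoxia cores, each window reads 5′ to 3′ on the gene's strand, and bases in an annotated UTR at the end of the Sesn2 and Ddit4 windows were left off.
Sesn1, inner start, chr10:41887189-41887438, plus strand: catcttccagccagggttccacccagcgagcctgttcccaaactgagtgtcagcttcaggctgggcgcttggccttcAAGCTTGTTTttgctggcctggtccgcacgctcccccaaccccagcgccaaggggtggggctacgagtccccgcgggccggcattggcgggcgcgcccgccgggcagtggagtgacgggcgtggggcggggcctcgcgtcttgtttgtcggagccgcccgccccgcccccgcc
Sesn2, chr4:132510502-132510706, minus strand: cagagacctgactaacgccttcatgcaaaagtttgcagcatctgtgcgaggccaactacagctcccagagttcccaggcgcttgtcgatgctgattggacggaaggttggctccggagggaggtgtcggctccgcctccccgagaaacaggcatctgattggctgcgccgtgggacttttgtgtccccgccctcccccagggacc
Ddit4, chr10:59951835-59952020, minus strand: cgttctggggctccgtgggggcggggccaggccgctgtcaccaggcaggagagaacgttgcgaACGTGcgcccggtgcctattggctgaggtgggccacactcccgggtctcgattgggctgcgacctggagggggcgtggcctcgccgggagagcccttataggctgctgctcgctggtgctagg
Rps27l, inner start, chr9:66946163-66946412, plus strand: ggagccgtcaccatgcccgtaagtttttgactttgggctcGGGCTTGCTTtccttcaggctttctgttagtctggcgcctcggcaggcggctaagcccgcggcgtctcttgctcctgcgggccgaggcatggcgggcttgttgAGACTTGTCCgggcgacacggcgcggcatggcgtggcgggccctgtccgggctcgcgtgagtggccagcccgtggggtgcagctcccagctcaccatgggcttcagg
The p53 decamer occurred in 2 of the 14 windows, the inner windows of Sesn1 (position 78 from the window's 5′ end) and Rps27l (positions 41 and 144), and in 7.13% of 32851 RefSeq windows of the same length. The inner start of Sesn1 lies 76.9 kb downstream of the outer one. Both inner windows lie inside the annotated span of their gene, and that of Rps27l holds 76 exon bases. The hypoxia core occurred in 3 windows, of Ddit4 (position 64), Gdf15 and Ak1, against 16.6% of all windows. The ATF4 core TGATGNAA was in 0 of the 14 windows, and in 3.45% of all windows. These matches are letters in a window of set length and say nothing of binding.

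Of the 8 genes, 7 moved at 1 or more times, Sesn1 downward and the other 6 upward. Ddit4 did not pass in the main fit of 8 group means, with all libraries and scaling by total reads. All 8 met the filter on low values (6 or more libraries with an RPKM of at least 1), although Gdf15 and Slc19a2 reached 1 in only 3 of 24 sham libraries and so passed through the irradiated ones. At 2 h 6 members rose and 1 fell (limma, Benjamini-Hochberg adjusted p under 0.05), where 4.6% of the 10132 genes tested rose and 4.02% fell (8.62% either way). At 6 h 6 rose and 1 fell against 12.9% and 8% of all genes (20.9% either way), and at 1 day 6 rose and 1 fell against 2.9% and 1.39% (4.29% either way). At 1 week 5 rose and 0 fell against 2.03% and 1.51% (3.54% either way). Every irradiated library lay above every sham library for 6, 6, 5 and 5 members at the 4 times, beside 2.47%, 4.96%, 2.29% and 2.06% of all genes. Every irradiated library lay below for 0, 1, 1 and 0 members, beside 2.03%, 2.88%, 0.691% and 1.12%. The median effect of the members was 1.90, 2.47, 1.68 and 1.15 at the 4 times, beside -0.01, 0.08, 0.00 and 0.05 over all genes.

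**Figure D1:**
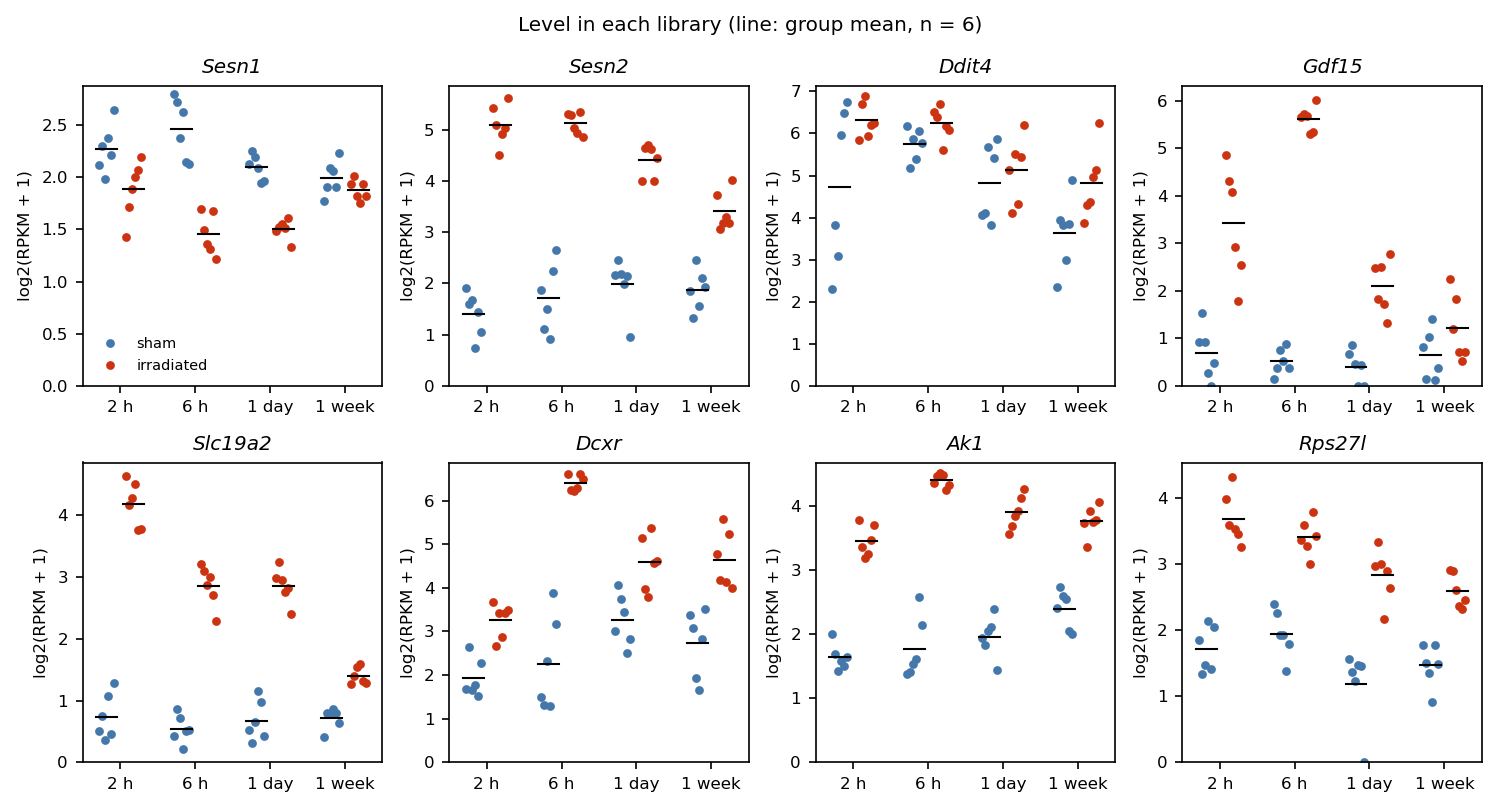
Level of each member in every library, as log2(RPKM + 1), by time after irradiation (points are libraries, 6 per group; blue is sham, red is irradiated; black lines are group means). Sesn2, Slc19a2, Ak1 and Dcxr separate fully at 2 h and 6 h, Sesn1 runs the other way, and the Ddit4 groups overlap at all 4 times.

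The sestrins are paralogs that bind GATOR2 and, in the case of Sesn2, sense leucine, so that mTORC1 is held back when leucine is scarce. Sesn2 rose at every time, while Sesn1 fell at 2 h, 6 h and 1 day. At 2 h Sesn2 was 0.670 to 2.76 RPKM in sham libraries (median 1.88) and 21.6 to 47.8 in irradiated libraries (median 32.5). All 6 irradiated libraries lay above all 6 sham libraries at 2 h. The effect was 3.69 ± 0.25 (SE, limma, adjusted p = 1.2e-15), a 19.6-fold ratio of group means.

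At 6 h Sesn2 ranged from 0.888 to 5.25 RPKM in sham (median 2.26) and from 28.0 to 39.5 in irradiated libraries (median 34.9), an effect of 3.41 ± 0.25 (limma, adjusted p = 1.81e-14). Its levels at 2 h and 6 h after irradiation overlapped, and the change in effect between them was -0.28 ± 0.35 (limma, adjusted p = 0.683). By 1 day irradiated libraries held 15.0 to 24.9 RPKM (median 22.3) and sham libraries 0.926 to 4.46 (median 3.47). At 1 week the ranges were 7.31 to 15.2 (median 8.43) and 1.51 to 4.50 (median 2.72), again without overlap. The effects were 2.42 ± 0.25 and 1.54 ± 0.25 (limma, adjusted p = 1.05e-09 and 0.000133), so Sesn2 was still 3.58-fold higher in group mean after 1 week.

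Sesn1 was 2.96 to 5.26 RPKM in sham libraries at 2 h (median 3.78) and 1.70 to 3.57 in irradiated ones (median 2.86), and the groups overlapped. It fell by 0.39 ± 0.12 on the log2 scale (limma, adjusted p = 0.0304), and this call is weak: it was lost without sham 2 h library 2, 4 or 6 (adjusted p = 0.053, 0.0603 and 0.11) and without irradiated 2 h library 1 or 2 (0.121 and 0.0791). It was also lost with no filter on low values, without the 3 shallow libraries, and in a fit of the 2 h libraries alone (limma, adjusted p = 0.0536, 0.0762 and 0.196), and with 2 h libraries 1 to 3 or 4 to 6 (0.0809 and 0.31). At 6 h the ranges parted, 3.38 to 5.94 RPKM in sham (median 4.67) against 1.33 to 2.24 in irradiated libraries (median 1.69). Sesn1 fell by 1.01 ± 0.12 on the log2 scale there (limma, adjusted p = 1.77e-08), with a sham mean 2.61 times the irradiated mean.

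At 1 day Sesn1 was 2.85 to 3.77 RPKM in sham (median 3.30) and 1.51 to 2.06 in irradiated libraries (median 1.87), again without overlap, and it fell by 0.59 ± 0.12 (limma, adjusted p = 0.000814). At 1 week its ranges overlapped, 2.41 to 3.69 against 2.36 to 3.04 RPKM, and the effect of -0.11 ± 0.12 did not pass (limma, adjusted p = 0.674). The pair differed in their starting levels too. Per kilobase of exon, Sesn1 was at 95.5 ± 19.7 (SD, n = 6) in sham libraries at 2 h and Sesn2 at 9.28 ± 4.08. This scale takes all reads as exon reads, which the sources used here do not state, and the size of the gap rests on it. Per kilobase of gene span the sham means at 2 h were 3.89 RPKM for Sesn1 and 1.75 for Sesn2. In irradiated libraries at 2 h the order turned, with 67.4 ± 16.6 for Sesn1 and 182 ± 49.8 for Sesn2 per kilobase of exon. Sesn3, the other sestrin, was too low to test, with 197 reads over the 6 sham libraries at 2 h and 122 over the irradiated ones, and 276 and 73 at 6 h, 183 and 105 at 1 day, and 173 and 134 at 1 week.

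Ddit4 (REDD1) acts through the TSC complex to lower mTORC1 activity. In the main fit of 8 group means, with all libraries and scaling by total reads, it did not pass at any time. At 2 h its sham libraries fell into separate levels: 3.95, 13.1 and 7.49 RPKM in libraries 1 to 3, and 61.9, 89.05 and 105.6 in libraries 4 to 6. The irradiated libraries were 56.5, 103.7 and 118 RPKM in libraries 1 to 3 and 60.4, 72.6 and 75.3 in libraries 4 to 6. Among libraries 1 to 3 every irradiated library lay far above every sham library, and among libraries 4 to 6 the groups overlapped with sham reaching higher.

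Over all 12 libraries the 2 h effect of Ddit4 was 1.57 ± 0.53 (limma, adjusted p = 0.0525). With libraries 1 to 3 of both groups it was 3.42 ± 0.57 (limma, adjusted p = 0.000114) and with libraries 4 to 6 it was -0.27 ± 0.55 (adjusted p = 0.906), an alternative chosen after seeing the data. Leaving out sham library 4, 5 or 6 brought the call past the threshold (limma, adjusted p = 0.0268, 0.0141 and 0.0105). With median-of-ratios scaling in place of totals the 2 h effect also passed narrowly (1.60, limma, adjusted p = 0.049). It passed too with all libraries and a term for library number in the fit (1.57 ± 0.46, limma, adjusted p = 0.0227). Immediate early genes were 17800 to 24600 RPM in sham libraries 1 to 3 and 4990 to 5730 in 4 to 6, and glucocorticoid receptor targets 4290 to 5930 and 2410 to 2910 RPM; mt-Rnr2 ran the other way, 28400 to 42200 and 67300 to 90200 RPM. Whether these bear on Ddit4 was not tested.

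At later times the Ddit4 groups overlapped. Sham and irradiated libraries held 35.4 to 71.3 and 47.6 to 103.7 RPKM at 6 h, 13.2 to 57.1 and 16.3 to 72.1 at 1 day, and 4.14 to 28.9 and 13.7 to 74.5 at 1 week. The effects were 0.51, 0.30 and 1.17 (SE 0.53 each, limma, adjusted p = 0.547, 0.86 and 0.217). In sham animals Ddit4 changed over time (limma F test, adjusted p = 0.0211), from a mean of 54.0 ± 13.8 RPKM at 6 h to 13.5 ± 8.59 at 1 week (SD, n = 6), though not without sham 1 week library 1 or 4 (0.0689 and 0.0531). Its paralog Ddit4l was near 0, with 1 sham read and 38 irradiated reads over 6 libraries each at 6 h.

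**Figure D2:**
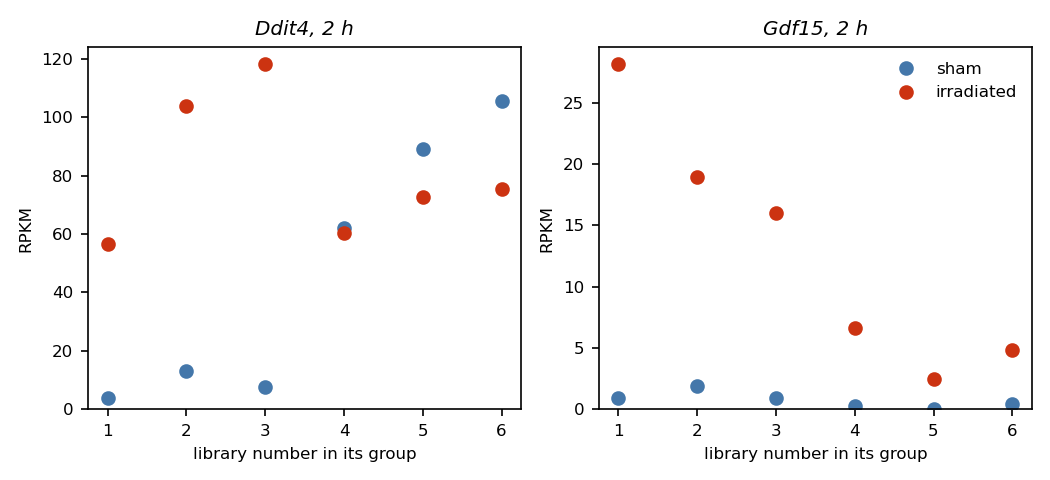
RPKM of Ddit4 and Gdf15 in each 2 h library, by library number within its group (blue is sham, red is irradiated; 1 point per library). Sham Ddit4 is 3.95 to 13.1 in libraries 1 to 3 and 61.9 to 105.6 in libraries 4 to 6, and irradiated Gdf15 is 16.0 to 28.1 and 2.45 to 6.58.

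Gdf15 encodes a secreted cytokine of the TGF-beta superfamily that signals through the brainstem receptor Gfral and lowers food intake. It was nearly silent in sham microglia, rose at 2 h and was highest at 6 h. By 1 day it was lower but still above sham, and at 1 week it did not pass. At 2 h sham libraries held 0 to 1.90 RPKM (median 0.641) and irradiated libraries 2.45 to 28.1 (median 11.3), without overlap. The irradiated libraries split by number, 16.0 to 28.1 RPKM in libraries 1 to 3 and 2.45 to 6.58 in libraries 4 to 6, and both sets stood above their sham counterparts (effects 3.30 ± 0.37 and 2.17 ± 0.37, limma, adjusted p = 4.08e-08 and 0.00016). With all libraries the effect was 2.73 ± 0.35 (limma, adjusted p = 1.15e-07).

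At 6 h Gdf15 was 0.113 to 0.837 RPKM in sham (median 0.376) and 38.4 to 63.4 in irradiated libraries (median 49.9). The sham group rested on 19 reads in all and the irradiated group on 1700, and every irradiated library was above every sham library. The effect was 5.11 ± 0.35 (limma, adjusted p = 2.13e-15). At 1 day the ranges were 0 to 0.810 (median 0.363) and 1.50 to 5.88 (median 3.57), an effect of 1.70 ± 0.35 (limma, adjusted p = 0.001), and at 1 week 0.0846 to 1.67 and 0.445 to 3.74 with overlap (0.56 ± 0.35, limma, adjusted p = 0.41). A library with 0 reads allows up to 3 reads, which is 0.43 RPKM in sham 2 h library 5, 0.398 in sham 1 day library 4 and 5.58 in the shallow sham 1 day library 6, a limit within the irradiated 1 day range. Reads of the receptor Gfral were found in no library.

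Slc19a2 is a high-affinity thiamine transporter, and it behaved as an early riser that declined. Sham libraries at 2 h held 0.292 to 1.43 RPKM (median 0.550) and irradiated libraries 12.5 to 23.8 (median 17.7), an effect of 3.44 ± 0.17 (limma, adjusted p = 1.49e-20). Irradiated levels were lower at 6 h, 3.87 to 8.28 RPKM (median 6.64), and alike at 1 day, 4.28 to 8.41 (median 6.42), beside sham ranges of 0.167 to 0.814 and 0.243 to 1.22. The effects there were 2.32 ± 0.17 and 2.18 ± 0.17 (limma, adjusted p = 1.14e-14 and 1.77e-13). At 1 week irradiated libraries had come down to 1.40 to 2.03 RPKM (median 1.56), still above the 0.327 to 0.812 of sham (0.69 ± 0.17, limma, adjusted p = 0.0142). The groups did not overlap at any of the 4 times.

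Of 5 tested genes for thiamine-dependent enzymes and cofactor handling 0 rose at any time, and 1 fell, at 2 h: Ogdh, a subunit of the oxoglutarate dehydrogenase complex (-0.39 ± 0.11, limma, adjusted p = 0.0174). Among all genes 4.6%, 12.9%, 2.9% and 2.03% rose at the 4 times, and 4.02% fell at 2 h. The transketolase gene Tkt was at 0.43 ± 0.20 at 6 h and 0.57 ± 0.20 at 1 week, and neither passed (limma, adjusted p = 0.134 and 0.105).

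Dcxr, dicarbonyl and L-xylulose reductase, is an NADPH-dependent enzyme of the glucuronate pathway. It rose modestly at 2 h, steeply at 6 h, and stayed raised for 1 week. At 2 h sham libraries held 1.87 to 5.26 RPKM (median 2.31) and irradiated libraries 5.37 to 11.8 (median 9.77), so the groups did not overlap, and the effect was 1.33 ± 0.36 (limma, adjusted p = 0.0126). The call did not hold in libraries 1 to 3 or 4 to 6 alone, though the effects were alike (1.26 and 1.40, limma, adjusted p = 0.205 and 0.163).

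At 6 h Dcxr reached 73.5 to 96.4 RPKM in irradiated libraries (median 82.8). The sham libraries differed among themselves, at 1.45 to 4.02 RPKM in libraries 1 to 4 and 13.8 and 7.97 in libraries 5 and 6, all far below. The effect was 4.16 ± 0.36 with all 6 sham libraries (limma, adjusted p = 5.68e-12). At 1 day sham and irradiated libraries overlapped, 4.71 to 15.8 (median 8.50) against 12.8 to 40.5 RPKM (median 23.2), with an effect of 1.31 ± 0.36 (limma, adjusted p = 0.0242). This call was lost without sham 1 day library 1, 5 or 6 (0.0554, 0.074 and 0.0536) and without irradiated 1 day library 1 or 4 (0.0684 and 0.0715). It was also lost with no filter and with the 1 day libraries alone (limma, adjusted p = 0.056 and 0.0608). At 1 week the groups parted again, 2.17 to 10.4 (median 6.73) against 14.8 to 47.0 RPKM (median 21.7), with an effect of 1.92 ± 0.36 (limma, adjusted p = 0.0013).

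Ak1 is a cytosolic adenylate kinase that balances ATP, ADP and AMP, and it was raised at all 4 times. Sham libraries held 1.69 to 3.01 RPKM at 2 h (median 2.06), 1.59 to 5.01 at 6 h (median 1.98), 1.72 to 4.26 at 1 day (median 2.99) and 2.99 to 5.69 at 1 week (median 4.59). Irradiated libraries held 8.12 to 12.8 (median 9.72), 18.1 to 22.0 (median 20.4), 10.8 to 18.3 (median 13.8) and 9.33 to 15.7 RPKM (median 12.6). No irradiated library overlapped a sham library of its time, and the spread among the irradiated 6 h libraries was the narrowest relative to its mean of the 8 groups (20.3 ± 1.53, SD, n = 6).

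The effects of Ak1 were 1.82, 2.63, 1.94 and 1.38 (SE 0.17 each, limma, adjusted p = 2.84e-11, 2.22e-16, 9.61e-12 and 2.73e-07). Its sham level also climbed, from 2.15 ± 0.46 at 2 h to 4.34 ± 1.07 RPKM at 1 week (limma F test over time, adjusted p = 0.00411). Among its paralogs, Ak3 did not pass at any time, and Ak4 to Ak8 were too low to test.

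Rps27l encodes a protein nearly identical to the ribosomal protein Rps27 and is itself a p53 target, so read sharing between the paralogs matters. The coding sequences are shown to let the difference be seen; capitals mark the bases that differ, and the stop codon is left off.
Rps27l (GENCODE M21, GRCm38, chromosome 9): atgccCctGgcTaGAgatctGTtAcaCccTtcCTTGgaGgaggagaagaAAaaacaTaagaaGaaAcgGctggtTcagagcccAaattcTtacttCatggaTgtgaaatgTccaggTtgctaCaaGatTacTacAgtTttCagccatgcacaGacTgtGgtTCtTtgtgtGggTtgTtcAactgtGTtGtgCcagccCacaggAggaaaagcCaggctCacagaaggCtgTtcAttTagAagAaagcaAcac
Rps27 (GENCODE M21, GRCm38, chromosome 3): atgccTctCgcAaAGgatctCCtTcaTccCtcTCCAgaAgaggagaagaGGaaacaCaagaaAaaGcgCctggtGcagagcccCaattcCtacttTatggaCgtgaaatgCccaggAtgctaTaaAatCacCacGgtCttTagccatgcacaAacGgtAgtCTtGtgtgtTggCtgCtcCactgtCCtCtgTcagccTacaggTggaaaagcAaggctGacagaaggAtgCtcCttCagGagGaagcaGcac
Over 252 coding bases 60 differ (76.2% identity), and the longest identical run is 11 bases. Rps27l rose at all 4 times and Rps27 passed at none (effects -0.05, 0.84, 0.23 and -0.52, SE 0.39 each, limma, adjusted p = 0.981, 0.13, 0.855 and 0.511).

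Sham libraries held 1.53 to 3.42 RPKM of Rps27l at 2 h (median 2.20) and irradiated libraries 8.57 to 19.0 (median 10.8). At 6 h the ranges were 1.60 to 4.25 (median 2.80) and 7.02 to 12.8 (median 9.52), at 1 day 0 to 1.94 (median 1.67) and 3.52 to 9.10 (median 6.65), and at 1 week 0.892 to 2.43 (median 1.82) and 3.98 to 6.56 (median 4.78). The observed values of the groups did not overlap at any time. The effects were 1.98, 1.46, 1.65 and 1.13 (SE 0.22 each, limma, adjusted p = 2.99e-09, 2.62e-06, 4.53e-07 and 0.00157). Counts were small, with 73 to 147 reads over the 6 sham libraries of a time and 277 to 472 over the irradiated ones, and the 0 in sham 1 day library 6 allows up to 4.99 RPKM, which lies within the irradiated range of that time. Of the 31 other small subunit ribosomal proteins tested, 1, 11, 2 and 0 rose at the 4 times and 0 fell. Across all genes 4.6%, 12.9%, 2.9% and 2.03% rose at these times. Rps19 rose at 2 h (1.70 ± 0.21), 6 h (1.86 ± 0.21) and 1 day (0.98 ± 0.21). With sham libraries 5 and 6 as the only 6 h controls 1 of the 31, Rps19, rose.

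**Figure D3:**
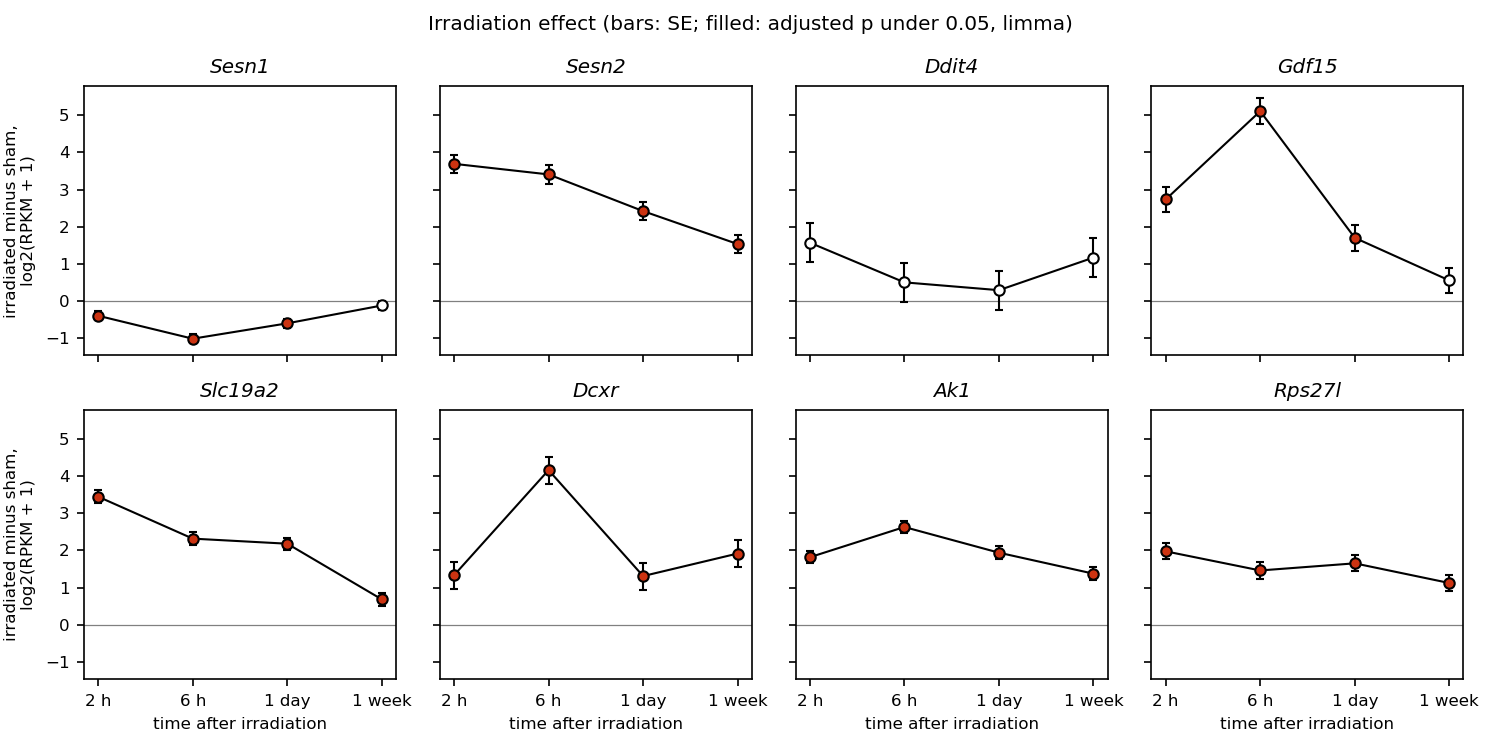
Irradiation effect of each member at the 4 times (irradiated minus sham, log2(RPKM + 1); points with SE bars; filled points have a limma adjusted p under 0.05; times are evenly spaced). Slc19a2 and Sesn2 are highest at 2 h, Gdf15, Dcxr and Ak1 at 6 h, Rps27l stays between 1.13 and 1.98, and Sesn1 lies below 0 throughout.

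The time courses differed between members. From 2 h to 6 h the effect changed in 5 of 8 members, against 9.28% of all genes: it grew for Gdf15 (2.37 ± 0.49), Dcxr (2.82 ± 0.51) and Ak1 (0.81 ± 0.24), and it moved downward for Slc19a2 (-1.13 ± 0.24) and Sesn1 (-0.62 ± 0.17; limma, adjusted p = 0.00152, 0.000286, 0.0239, 0.00168 and 0.0157). With a pseudocount of 0.1, or with voom on the recovered reads, 2 of these 5 changes passed, those of Sesn1 and Dcxr. From 6 h to 1 day it changed in 2, Gdf15 (-3.40 ± 0.49) and Dcxr (-2.85 ± 0.51; limma, adjusted p = 4.66e-05 and 0.000681), against 4.38% of all genes. From 1 day to 1 week it changed in Slc19a2 alone (-1.50 ± 0.24, limma, adjusted p = 6.25e-05), against 5.43%. The call for Ak1 between 2 h and 6 h was lost without sham 2 h library 1, sham 6 h library 1 or sham 6 h library 2 (limma, adjusted p = 0.0513, 0.0575 and 0.0536). With 2 h libraries 1 to 3 alone the changes of Ak1 and Sesn1 from 2 h to 6 h did not pass (limma, adjusted p = 0.0687 and 0.0696) and that of Ddit4 did (-2.91, 0.00968), and with libraries 4 to 6 alone those of Ak1 and Slc19a2 did not pass (0.177 and 0.14). Without sham 6 h library 5, sham 6 h library 6 or sham 1 day library 6, the changes from 6 h to 1 day also passed for Ak1 (limma, adjusted p = 0.0114, 0.0421 and 0.0353) and Sesn2 (0.0492, 0.0268 and 0.026).

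The 6 h results were recomputed with each set of sham libraries. With libraries 5 and 6 as the only controls the effects were 2.68 for Sesn2, -0.68 for Sesn1, 4.99 for Gdf15, 2.35 for Slc19a2, 2.88 for Dcxr, 2.04 for Ak1 and 1.82 for Rps27l. With libraries 1 to 4 they were 3.77, -1.17, 5.16, 2.30, 4.80, 2.92 and 1.28 in the same order. These 7 members passed both ways, while the count over all genes went from 2120 to 212 and to 3062. Ddit4 passed neither way (0.33 and 0.60). The changes between times were less firm: with libraries 5 and 6 alone 0 members changed from 2 h to 6 h and 1, Gdf15, from 6 h to 1 day (-3.28, limma, adjusted p = 0.00722), whereas libraries 1 to 4 gave 5 and 5.

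**Figure D4:**
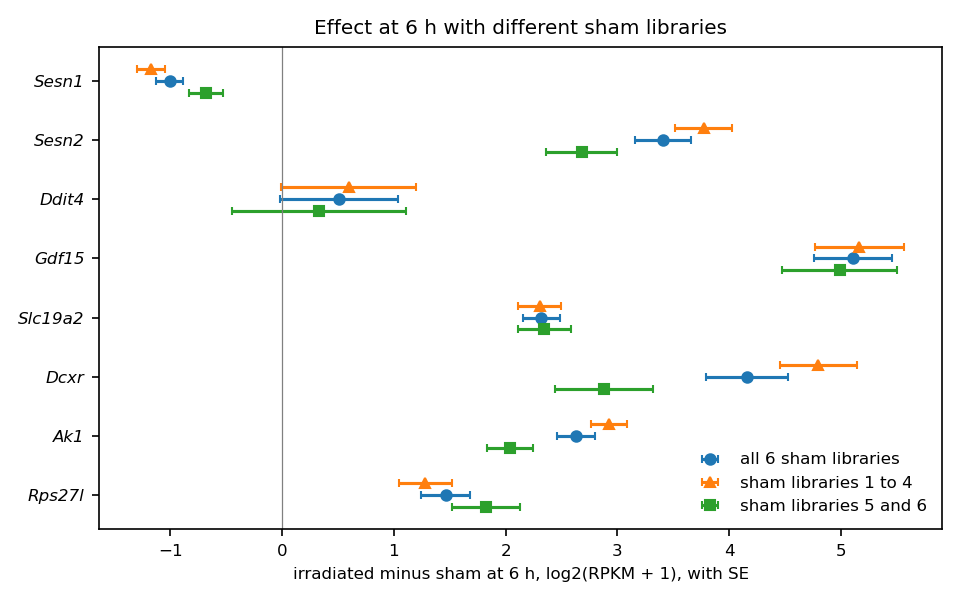
Irradiation effect at 6 h for each member (log2(RPKM + 1), with SE) with all 6 sham libraries, with sham libraries 1 to 4 and with sham libraries 5 and 6 as the controls. Dcxr moves the most, from 4.80 to 2.88, and Ddit4 stays at 0.33 to 0.60.

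Sham levels alone changed over the 4 times for Sesn1, Ddit4, Dcxr, Ak1 and Rps27l, 5 of 8 members against 21.1% of all genes (limma F test, adjusted p = 0.0122, 0.0211, 0.0234, 0.00411 and 0.0396). Dcxr was lowest at 2 h (2.96 ± 1.32 RPKM) and highest at 1 day (9.32 ± 4.21), both as mean ± SD (n = 6), and the median of Sesn1 went from 4.67 RPKM at 6 h to 2.95 at 1 week. The call for Dcxr was lost without sham 1 day library 2 or 3 (limma, adjusted p = 0.0681 and 0.0576). That for Rps27l was lost without any 1 of 7 libraries, sham 2 h library 4 (0.0503), sham 6 h libraries 1 to 4 (0.0933, 0.084, 0.0585 and 0.0575) and sham 1 day libraries 3 and 6 (0.0562 and 0.11). With sham 6 h libraries 5 and 6 alone the calls for Sesn1, Ddit4 and Rps27l were lost (limma, adjusted p = 0.26, 0.107 and 0.306) and Sesn2 passed (0.0493), and with libraries 1 to 4 Ddit4 was lost (0.0515). Dcxr was lost with 2 h libraries 1 to 3 or 4 to 6 (0.112 and 0.0621), and Rps27l with 2 h libraries 1 to 3 or without the 3 shallow libraries (0.0609 and 0.155). With no filter Ddit4, Dcxr and Rps27l were lost (0.056, 0.0599 and 0.0903), and with voom Dcxr and Rps27l (0.0946 and 0.273).

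Genes of the same pathways were read beside the members. The shares of all 10132 genes that rose were 4.6%, 12.9%, 2.9% and 2.03% at the 4 times. Those that fell were 4.02%, 8%, 1.39% and 1.51%. Of 14 tested p53 targets of arrest, death and feedback, 12, 12, 10 and 8 rose at the 4 times and 0 fell, with medians of 2.26, 2.01, 1.36 and 0.73. Among them Cdkn1a, the p21 cell cycle inhibitor, rose by 5.58 ± 0.25 at 2 h and 4.54 ± 0.25 at 1 week, and Mdm2, the ubiquitin ligase for p53, by 2.96 ± 0.16 at 2 h. The count at 6 h was also 12 with either set of sham libraries. Of 11 other stress and metabolic p53 targets 3, 7, 3 and 2 rose and 0 fell. Trp53inp1, an autophagy and stress protein, rose at all 4 times (3.38, 2.54, 1.65 and 0.82, SE 0.16 each), and Ephx1, the microsomal epoxide hydrolase, at 6 h (2.00 ± 0.11), 1 day (1.15 ± 0.11) and 1 week (0.55 ± 0.11). Cpt1c, a carnitine palmitoyltransferase homologue, rose at 6 h (1.83 ± 0.16) and 1 day (1.01 ± 0.16) from sham means of 0.0174 and 0.0221 RPKM. With sham libraries 5 and 6 alone 4 of the 11 rose at 6 h.

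Of 21 tested genes of amino acid sensing and mTORC1 control, 1 rose at 2 h (Ulk1, the autophagy kinase, 0.52 ± 0.16), 5 rose at 6 h and 1 fell at 1 day (Wdr24 of GATOR2, -1.68 ± 0.50), beside the 4.6% and 12.9% of all genes that rose at 2 h and 6 h and the 1.39% that fell at 1 day. The 6 h risers included the autophagy receptor Sqstm1 (1.19 ± 0.25), the Ragulator subunits Lamtor4 (1.20 ± 0.29) and Lamtor2 (1.50 ± 0.38), and Keap1, which holds the antioxidant factor Nrf2 in check (0.71 ± 0.23). With sham libraries 5 and 6 alone 1 of the 21 rose, the Rag GTPase gene Rragc.

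Of 16 tested ATF4 targets 5 rose and 1 fell at 2 h, 4 rose at 6 h, 1 rose at 1 day and 1 fell at 1 week. Beside these counts, 4.6% of all genes rose and 4.02% fell at 2 h. The shares were 12.9% rising at 6 h, 2.9% rising at 1 day and 1.51% falling at 1 week. Cebpb, a transcription factor, rose at 2 h (1.89 ± 0.36), Mthfd2 of mitochondrial folate metabolism at 2 h (0.70 ± 0.19), the amino acid transporter chain Slc3a2 at 6 h (1.04 ± 0.16) and Psat1 of serine synthesis at 1 day (1.00 ± 0.13). With sham libraries 5 and 6 alone 0 of the 16 rose at 6 h, and with 2 h libraries 1 to 3 or 4 to 6 alone 1 passed at 2 h.

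In the lists tied to other inputs of Ddit4 the calls at 2 h were all downward, and those at 6 h went in both directions. Whether they bear on Ddit4 was not tested. Of 10 glucocorticoid receptor targets 1 fell at 2 h (Mt1, a metallothionein, -1.35 ± 0.37), and at 6 h 2 rose (Mt2, 2.52 ± 0.47, and Mt1, 1.70 ± 0.37) and 1 fell (Tsc22d3, -0.71 ± 0.18). Of 8 hypoxia targets Pdk1 (-0.68 ± 0.16) and Hk2 (-0.48 ± 0.15) fell at 2 h, and at 6 h the glucose transporter gene Slc2a1 (1.05 ± 0.22) and Ldha (0.73 ± 0.16) rose while 2 fell. With sham libraries 5 and 6 alone 0 passed at 6 h in either list. At 1 week Pdk1 fell (-0.78 ± 0.16), and of the glucocorticoid targets Cdkn1c fell (-0.99 ± 0.26) and Errfi1 rose (0.80 ± 0.24). Among all genes 4.02% fell at 2 h, 12.9% rose and 8% fell at 6 h, and 2.03% rose and 1.51% fell at 1 week. Of 14 immediate early genes 0 passed at 2 h, and Jund rose at 6 h (1.76 ± 0.51), though not with sham libraries 5 and 6 alone (0.06 ± 0.65).

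Of 10 genes of pentose, xylulose and glucuronate metabolism, the pathway of Dcxr, 0 passed at 2 h and 4 rose at 6 h. They were Akr1a1 (0.75 ± 0.16), Sord (0.71 ± 0.16), G6pdx (0.54 ± 0.15) and Pgd (0.45 ± 0.15), none of which passed with sham libraries 5 and 6 alone. Across all genes 8.62% passed at 2 h, 12.9% rose at 6 h and 2.03% rose at 1 week. Akr1a1, which reduces glucuronate, rose again at 1 week (0.61 ± 0.16, limma, adjusted p = 0.0208). Of 10 genes of adenylate energy balance Prkab2, a subunit of the AMP-activated kinase, rose at 2 h (0.83 ± 0.14) and Slc25a4, an ADP/ATP carrier, at 6 h (0.74 ± 0.25). Prkab2 is also 1 of the 3 other stress and metabolic p53 targets that rose at 2 h. Beside these, 4.6% of all genes rose at 2 h and 12.9% at 6 h. With sham libraries 5 and 6 alone 0 of the 10 passed at 6 h, and Slc25a4 was at -0.07 ± 0.30.

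**Figure D5:**
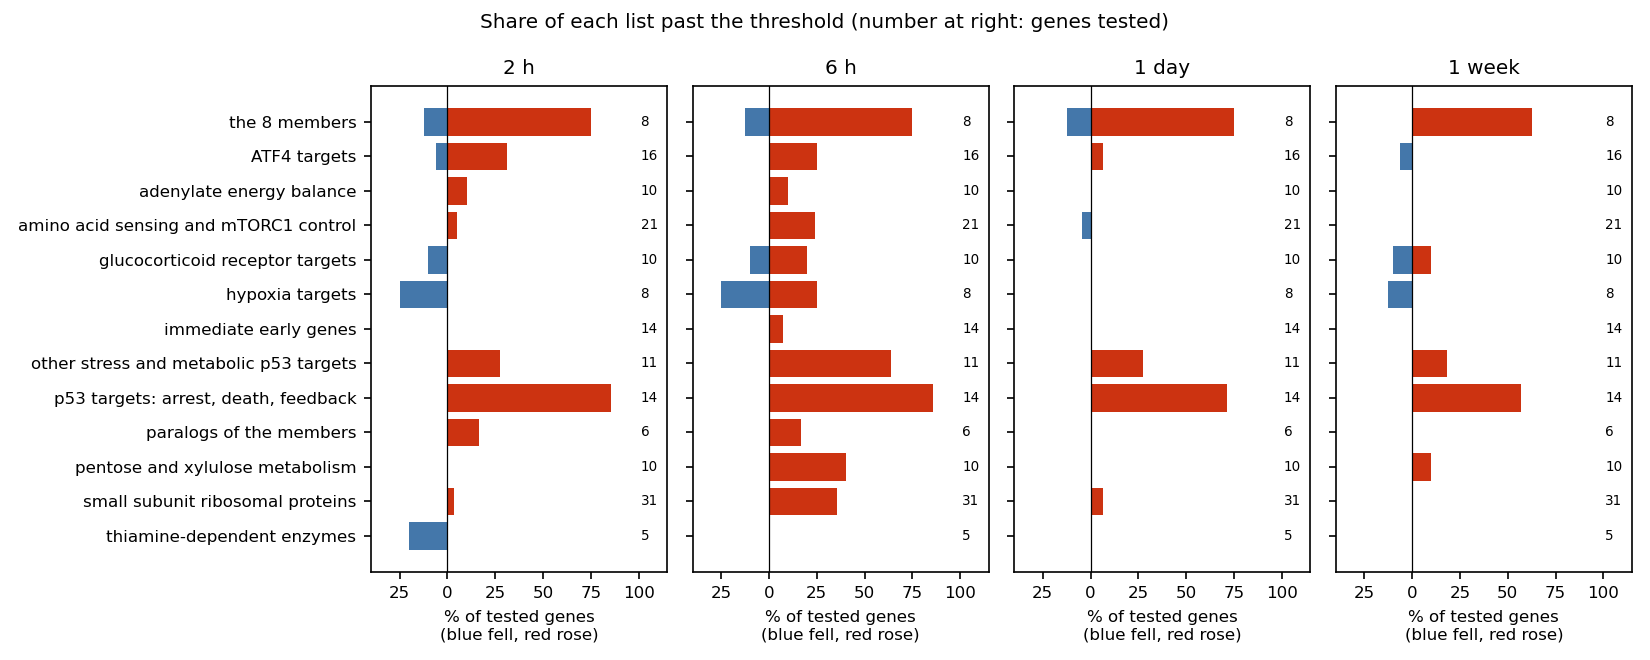
Share of the tested genes of each list that rose (red, to the right) or fell (blue, to the left) at each time, with the number tested at the right of each panel (limma, adjusted p under 0.05, all 6 sham libraries). Of the 8 members 6, 6, 6 and 5 rose, beside 12, 12, 10 and 8 of 14 p53 targets of arrest, death and feedback.

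Across the 48 libraries, which share groups and depth, each member was set beside all other tested genes by Pearson's r of log2(RPKM + 1), as a description. Sesn2 ran closest to Fam212b (0.956) and Phlda3 (0.954), Slc19a2 to Trp53inp1 (0.956) and Mdm2 (0.942), Ak1 to Cdkn1a (0.938) and Psrc1 (0.911), and Rps27l to Ccng1 (0.906) and Phlda3 (0.892). Gdf15 ran closest to Cep170b (0.918) and Fam198b (0.905), and Dcxr to Ephx1 (0.879) and Glipr1 (0.876). Sesn1 ran closest to Hpgd (0.882) and Gpr165 (0.849). Ddit4 had no close partner, with 0.577 for Abhd4 and 0.571 for Nfe2l2. Among the members the highest r was 0.892, between Sesn2 and Ak1, and the lowest -0.827, between Sesn1 and Ak1.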

How the data were processed

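STAR 2.6.1d, featureCounts 1.5.1, bcl2fastq 2.20.0 and FastQC 0.11.8 are named with GRCm38 (mm10), per the submitters' processing notes; the annotation, strandedness and read assignment are not given in the sources used here. The authors deposited RPKM, in which whole reads had been divided by gene span, introns included, and by a library total that was in general that of another library (2.05% of values had their own). Whole reads came back for 100% of 719081 values above 0, within 0.001 reads, and RPKM was recomputed with each library's own total. For 95 genes, no member among them, more than 1 match was possible.

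The 10132 genes that reached 1 RPKM in 6 or more libraries entered a fit of log2(RPKM + 1) by limma (version 3.58.1, R 4.3.3). It had 8 group means, robust and trended eBayes, and 40 residual degrees of freedom. Tests are two-sided, with Benjamini-Hochberg adjustment over the genes of each contrast. Labels do not say how replicates were bred or handled, so p-values measure the spread between these animals. Same-numbered libraries of the 2 conditions were not paired in the fit. Over all times 2 of 24 correlations of their deviations passed 0.1 (-0.107 to 0.137), and these were at 2 h (0.137 and 0.128). The 2 h correlations ran from 0.0162 to 0.137. At 2 h library numbers went with a split seen in sham and irradiated libraries, for which the main fit has no term.

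All 8 members are described. In each list the genes named were picked from up to 4 tested genes with the smallest adjusted p per time. Where none passed, they came from up to 2 of the highest mean. Not every gene of these sets is named, and Rragc was named after its value was seen. Members and lists were chosen with earlier results of these data known. Motifs, exon lengths (GENCODE M21) and the split of 2 h libraries were added after seeing the data. 1 paralog is not reported here.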

Additional observations from a re-analysis of the deposited data

Results flagged for a closer look

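Single libraries stood far from the rest of their group in 2 of the 64 groups of values examined, where chance flags about 1 in 20. Ddit4 was 74.5 RPKM in irradiated 1 week library 6, with the nearest library at 34.3. Rps27l was 0 in sham 1 day library 6, the shallowest library with 175382 reads, with the nearest at 1.36 RPKM.

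Of 24 differences in effect between adjacent times, 8 passed the test of the difference itself (limma, adjusted p under 0.05). From 2 h to 6 h they were 2.37 for Gdf15, 2.82 for Dcxr, 0.81 for Ak1, -1.13 for Slc19a2 and -0.62 for Sesn1. From 6 h to 1 day they were -3.40 for Gdf15 and -2.85 for Dcxr, and from 1 day to 1 week -1.50 for Slc19a2.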

How the results depend on the processing

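The counts of members called at 6 h and 1 week did not change when any 1 library was left out (7 to 7 and 5 to 5). Those at 2 h and 1 day ran from 6 to 8 and from 6 to 7, changed effects from 4 to 5, 2 to 4 and 1 to 1 over the successive intervals, and changed sham levels from 3 to 5. On the RPKM as deposited, with totals of other libraries, 4 members were called at 2 h, 1 at 1 day and 0 at 1 week, and 0 effect changes and 0 sham changes passed at an adjusted p. With voom on recovered reads 2, 4 and 2 effects changed over the intervals and 3 sham levels did; with a pseudocount of 0.1, 2 changed from 2 h to 6 h; with no filter 2 sham levels changed. With sham 6 h libraries 5 and 6 alone 0 and 1 effects changed over the first intervals and 3 sham levels did, and with libraries 1 to 4 5 changed from 6 h to 1 day. With 2 h libraries 4 to 6 alone 3 effects changed from 2 h to 6 h, and with libraries 1 to 3 alone 3 sham levels did.

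Signs turned in 11 cases. The change of Ddit4 from 6 h to 1 day became 0.38 as deposited, 0.015 with voom and 0.067 without the shallow libraries, and with 2 h libraries 4 to 6 its 2 h effect was -0.27 and its change to 6 h 0.78. The change of Rps27l from 6 h to 1 day became -0.0404 without shallow libraries, -0.17 with sham 6 h libraries 5 and 6 and -0.0453 without sham 1 day library 6 (up to 0.32 in the other leave-one-out fits). The change of Sesn2 from 2 h to 6 h became 0.079 with sham 6 h libraries 1 to 4 and 0.13 with 2 h libraries 1 to 3, and that of Slc19a2 from 6 h to 1 day 0.12 as deposited. The cause was not tested. With a replicate block 8 members were called at 2 h, Ddit4 with them (limma, adjusted p = 0.0227), and the other counts of members were the same. Same-numbered libraries correlated best with their own number in 7 of 24 cases, among them libraries 1, 3, 5 and 6 at 2 h.

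Genes called over the whole table numbered 873, 2120, 435 and 359 at the 4 times. They were 52, 64, 39 and 11 as deposited, 513 at 2 h and 259 at 1 day with the libraries of that time alone, 690 at 1 day and 931 at 1 week with voom, 235 at 1 week with no filter, 212 at 6 h with sham libraries 5 and 6, and 550 and 361 with 2 h libraries 1 to 3 and 4 to 6. Genes whose effect changed from 2 h to 6 h, from 6 h to 1 day and from 1 day to 1 week numbered 940, 444 and 550, and were 3, 0 and 9 as deposited. They were 85 and 32 over the first intervals with sham 6 h libraries 5 and 6 and 1980 and 1428 with libraries 1 to 4, and voom gave 677 and 1266 over the later ones. From 2 h to 6 h 2 h libraries 4 to 6 gave 289, and from 1 day to 1 week no filter gave 366. Sham levels changed for 2139 genes, 670 as deposited. Low counts of Gdf15 and Rps27l in sham libraries limit the precision of their folds.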
